A study of Saccharomyces cerevisiae with 12 samples.

Results

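RNA levels were compared between budding yeast carrying an scc2-G1242V plasmid and yeast carrying the same plasmid with wild-type SCC2, while the chromosomal Scc2 protein was marked for degradation. All 7033 usable features of the table were considered, and the 6097 with a mean abundance of 1 or more in TPM (transcript abundance scaled to a fixed total per library) over the 12 libraries of the series were tested. The comparison used 3 libraries labelled G1242V and 3 labelled WT. All strains were W303 haploids of mating type a with the can1, trp1, ade2, leu2 and his3 alleles of that background. Their chromosomal SCC2 was SCC2-AID*-6FLAG-HYG, a fusion that auxin marks for destruction, and ADH1-OsTIR1, the plant F-box gene needed for this, was integrated at ura3-1 with its URA3 marker. The plasmid, pRS413 with HIS3 as marker, held 7MYC-tagged SCC2 (WT), scc2-G1242V or scc2-R787G, or no insert (null in the labels, empty_vector here). Cultures grew in synthetic medium without histidine, with a starting OD600 of 0.1 and 90 min of growth before auxin. They received 1 mM auxin for 3 h, reaching an OD600 of 0.4 to 0.8. The controls thus also carried the degron, OsTIR1 and auxin. The labels call for 3 cultures of each strain, and 2 for the strain without insert, for which 3 libraries were used here. Whether the 3 G1242V cultures came from 1 transformant is not given in the sources used here.

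Scc2 and Scc4 form the loader that places cohesin on chromosomes. Cohesin is a ring of Smc1, Smc3 and Mcd1 with Irr1 bound to it, and it holds sister chromatids together and folds chromatin into loops. Scc2 also stimulates the ATPase of cohesin, and changes in its human counterpart NIPBL cause Cornelia de Lange syndrome, in which many genes change their expression modestly.

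The changed residue lies in the later portion of Scc2, a protein of 1493 residues in the reference. SCC2 (YDR180W) is on the forward strand of chromosome IV, from 821295 to 825776 (R64 assembly), in an uninterrupted coding region. The stretch below is the reference DNA around the codon that G1242V changes, shown because it is the site that separates the strains compared; capitals mark the glycine codon, at 825018 to 825020.
SCC2, chrIV:824988-825050, forward strand: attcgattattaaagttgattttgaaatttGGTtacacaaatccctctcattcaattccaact

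SCC2 RNA was unequal among the libraries labelled G1242V, and this bears on every result that follows. Values here and below are scaled TPM, which is the deposited TPM divided by a factor for each library. SCC2 stood at 51.2, 93.2 and 12.4 in G1242V libraries 1, 2 and 3, against 120, 128 and 109 in the WT libraries. All 3 were below WT, and library 3 was at the level of the strain without insert (12.4 ± 0.353, SD, n = 3), in which the degron copy is the sole source of SCC2 RNA. The difference did not pass the test (log2 fold change -1.57, SE 0.50, adjusted p = 0.0902; -0.77 without library 3). HIS3, an enzyme of histidine synthesis and the marker of the plasmid, read 2498, 1042 and 2780 in the G1242V libraries and 900, 845 and 796 in WT. It read 3500, 2590 and 2423 in the empty_vector libraries and 1050, 1353 and 872 in the R787G libraries. G1242V libraries 1 and 3 were thus both within the empty_vector range, and results without library 3 still hold library 1. Libraries 1 and 3 were high and library 2 was close to WT, so HIS3 ran opposite to SCC2 (log2 fold change 1.19, SE 0.31, adjusted p = 0.0546; 0.93 without library 3). YOR203W, next to HIS3 (YOR202W) by systematic name and with no match in the reference, followed the same pattern (1024, 418 and 1114, against 355, 324 and 301 in WT). It did pass (adjusted p = 0.0402) and is named for that reason. Whether its reads came from the marker gene was not tested. Library 3 goes against its label in SCC2, so results are given for the libraries labelled G1242V. Most genes given library by library have their fold change without library 3 beside it, other genes have the fold change over all 3, and all but 4 of the features called lost their call without library 3. RNA of the degron copy and of the plasmid copy cannot be told apart, nor can fewer cells with a full plasmid be told from less SCC2 RNA per cell.

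**Figure D1:**
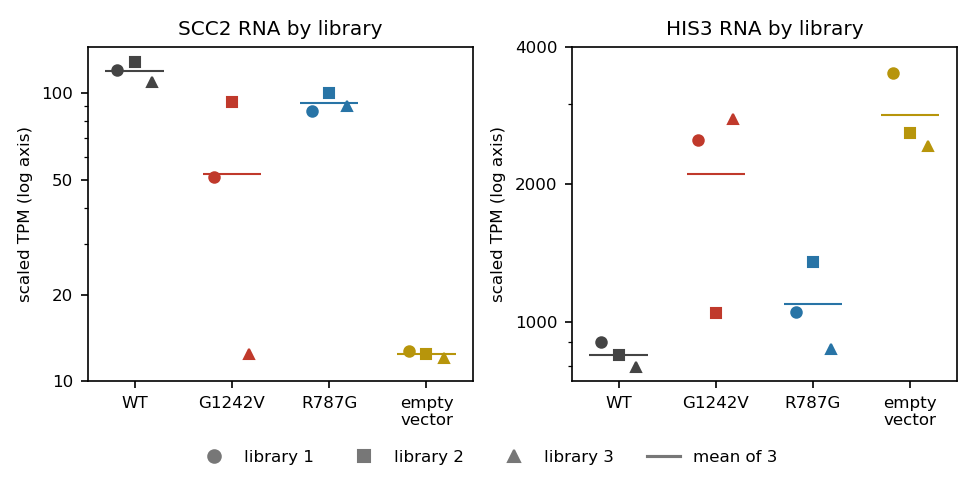
SCC2 RNA (left) and HIS3 RNA (right) in scaled TPM on log axes, with a point for each of the 12 libraries and a line at the mean of 3. The libraries labelled G1242V spread from 12.4 to 93.2 in SCC2, and library 3 coincides with the libraries without insert.

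In correlations, mating type genes and chromosome medians, no G1242V library stood apart from the others of its group. Spearman correlations over features were 0.991 to 0.995 among the G1242V libraries, 0.989 to 0.996 among the WT libraries and 0.975 to 0.991 between the groups. These ranges overlap, and correlations with the empty_vector libraries were not computed. Mating type genes were as labelled: STE2, the alpha-factor receptor, was at 109 to 122 in all 6 libraries, whereas STE3, the receptor of the opposite mating type, was at 4.93 to 6.47. Over the 16 nuclear chromosomes, the median difference from the WT mean lay between -0.06 and 0.03 (log2) in each G1242V library. Ribosomal RNA levels in these rRNA-depleted libraries differed from WT. The 25S rRNA features (RDN25, identical copies) were at 582, 980 and 775 in WT and at 54.1, 201 and 93.2 in the G1242V libraries (log2 fold change -2.91, SE 0.37, adjusted p = 0.00807; -2.85 without library 3). RDN25 was at 217, 151 and 163 in the R787G libraries and at 171, 202 and 186 in the empty_vector libraries. Every WT library was thus above all libraries of the other groups, and the low level was not particular to G1242V. Over the 16 tested features of the list of depleted and structural RNAs, 4 were called lower in G1242V than in WT, which are 2 identical pairs. Their median differences from the WT mean were -1.28, -0.64 and -1.02 in G1242V libraries 1, 2 and 3, against -0.35, 0.70 and -0.02 in the WT libraries. The part of this difference in the results below was not tested.

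Against WT, 279 of the 6097 features were called at an adjusted p under 0.05, which is 4.58% of those tested. Of these, 121 were higher (1.98%) and 158 lower (2.59%), and 1640 features had an unadjusted p under 0.05. Most changes were small, with 7 rises and 4 falls of 2-fold or more, the falls all being rRNA features. All 3 G1242V libraries lay outside the WT range at every one of the 279 features. This agreement is not rare in the table, because the groups did not overlap at 2463 features (40.4%), 1266 of them higher (20.8%) and 1197 lower (19.6%). Called rises had a median of 0.49 on the log2 scale, with 0.40, 0.41 and 0.58 in libraries 1, 2 and 3, and called falls had -0.36, -0.28 and -0.43. Library 3 was the farthest of the 3 from WT at 79 of the 121 rises and 121 of the 158 falls, and library 2 was the nearest at 118 of the falls.

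The number of calls rested on single libraries. Without library 3 only 4 features were called (0.0656%), all higher, and without WT library 1 only 3. The count was 55 without WT library 2, 50 without WT library 3, 68 without G1242V library 1 and 318 without G1242V library 2. On the deposited TPM without scaling it was 57, of which 39 were higher (68.4%, against 43.4% after scaling). The groups did not overlap at any called feature, so leaving out a library could not turn a direction. The 4 features called without library 3 were VHS1, TOS8, ADI1 and YOL159C-A.

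**Figure D2:**
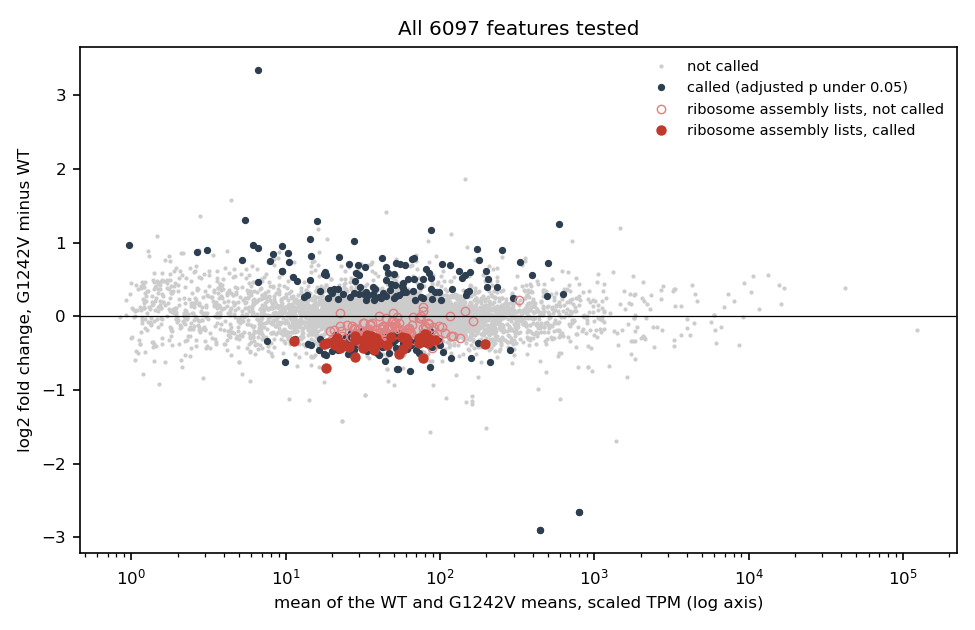
Log2 fold change of the libraries labelled G1242V against WT for the 6097 features tested, by mean level in scaled TPM on a log axis; dark points are called features and red points the 159 tested members of the ribosome assembly lists. The lists sit below 0, with 47 members called lower, and the 2 lowest dots are the rRNA features.

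Genes for building ribosomes made up 47 of the 158 falls, each by a modest amount and in all 3 libraries. Ribosomes are assembled in the nucleolus, where RNA polymerase I makes the rRNA, small nucleolar RNPs modify it, and a large set of assembly factors folds and cuts it around the ribosomal proteins. Of 159 tested genes on the lists for the small subunit, the large subunit and the small nucleolar RNPs, 47 fell (29.6%, against 2.59% of all features), none rose and 112 did not pass. Their median was -0.24 on the log2 scale, against 0.01 over all features, and 151 of them had values below WT. The median difference from the WT mean was -0.24 in library 1, -0.17 in library 2 and -0.31 in library 3, whereas the WT libraries had medians of 0.02, 0.04 and -0.06. All 3 G1242V libraries were below every WT library at 114 members (71.7%, against 19.6% of all features). Without library 3 the median was -0.20, with 149 members below WT and none called; without WT library 1 none was called either. The other libraries whose omission moved the count over 1.5 times were WT library 2 (6 called), WT library 3 (14) and G1242V library 1 (7), and the deposited TPM gave 5.

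Among the 78 factors of the large subunit 20 fell. RSA4, which prepares the late particle for the AAA-ATPase Rea1, was at 23.0, 23.7 and 21.8 in WT and at 12.8, 16.6 and 12.1 in the G1242V libraries. All 3 were low and library 2 was the highest of them (log2 fold change -0.70, SE 0.10, adjusted p = 0.0109; -0.61 without library 3). ALB1, a shuttling factor of the particle that leaves the nucleus, was at 64.4, 66.3 and 61.9 in WT and at 44.7, 50.3 and 39.9 in the G1242V libraries (-0.51, adjusted p = 0.0203; -0.43 without library 3). REI1, which acts on the same particle in the cytoplasm, went from 70.3, 69.7 and 66.3 to 53.6, 53.8 and 51.4. The 3 G1242V libraries were nearly equal there (-0.37, adjusted p = 0.0157; -0.35 without library 3). DBP7, an RNA helicase, changed by -0.43 and RRP1, needed for 27S rRNA processing, by -0.55, and at both genes the 3 libraries were below WT.

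Among the 63 factors of the small subunit 19 fell. UTP5, a subunit of the tUTP complex that links rRNA transcription to its processing, was at 42.0, 41.1 and 39.3 in WT and at 29.3, 34.5 and 30.0 in the G1242V libraries. All 3 were below WT and library 2 was again the nearest (log2 fold change -0.38, SE 0.07, adjusted p = 0.0197; -0.35 without library 3). UTP13 (-0.43) and UTP21 (-0.42), members of the UTP-B complex, and the helicase gene DBP8 (-0.39) were also lower in all 3. Of 20 genes for small nucleolar RNP proteins 8 fell. NOP1, the fibrillarin methyltransferase of box C/D particles, stood at 96.1, 90.8 and 91.9 in WT and at 63.7, 65.8 and 58.2 in the G1242V libraries. Here the 3 libraries were close together and well under WT (-0.56, SE 0.09, adjusted p = 0.0116; -0.51 without library 3). GAR1, of the box H/ACA particles, changed by -0.45, and NSR1, yeast nucleolin, by -0.37.

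Many of these genes share a pair of promoter elements, PAC (GCGATGAG) and RRPE (AAAAATTT), which are known from ribosome assembly genes. The letters were looked for exactly, on both strands, from 250 bases before to 50 bases after the start codon. PAC and RRPE letters cannot overlap each other, and RRPE can overlap its own reverse, which was counted once. The 4 stretches below are from called falls that hold both elements and are shown to compare their order and spacing; capitals mark the elements, written along the coding strand of each gene in the R64 reference.
RSA4, chrIII:242427-242490, reverse strand: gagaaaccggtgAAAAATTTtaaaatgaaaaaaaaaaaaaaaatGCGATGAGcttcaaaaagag
UTP5, chrIV:1267273-1267357, forward strand: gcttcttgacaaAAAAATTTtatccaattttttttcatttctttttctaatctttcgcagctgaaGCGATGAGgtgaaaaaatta
REI1, chrII:739730-739774, forward strand: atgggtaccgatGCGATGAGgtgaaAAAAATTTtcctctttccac
GUA1, chrXIII:701555-701604, forward strand: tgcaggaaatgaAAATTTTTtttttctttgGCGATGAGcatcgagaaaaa
The printed stretch begins 138 bases before the start codon in RSA4, 198 in UTP5, 111 in REI1 and 235 in GUA1. RRPE stands before PAC in RSA4 and UTP5, after it in REI1, and before it but reversed in GUA1.

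Both elements were found in 2.39% of the 5679 promoters of tested genes, in 17.5% of the 154 promoters of genes called lower and in 0.935% of the 107 promoters of genes called higher. RRPE alone or with PAC was in 14.7%, 53.2% and 6.54% of them, in the same order, and PAC in 4.16%, 21.4% and 1.87%. Outside the ribosome assembly lists, 43 of 107 promoters of falling genes still held RRPE (40.2%), and 9 held PAC (8.41%). Within the lists, members that were called held RRPE in 83.0% and PAC in 51.1%, and members that were not called in 79.5% and 49.1%. Seen from the promoters, the 136 genes with both elements had a median log2 fold change of -0.22, with -0.19, -0.15 and -0.27 in libraries 1, 2 and 3. The 100 genes with PAC alone had -0.07, the 696 with RRPE alone -0.08 and the 4747 with neither 0.02. Of those with both, 27 fell (19.9%) and 1 rose, and of those with neither, 66 fell (1.39%) and 99 rose. The stress element STRE (AGGGG) was in 14.9% of falling, 22.4% of rising and 22.1% of all promoters. A match is a description of the letters and not a shown site.

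**Figure D3:**
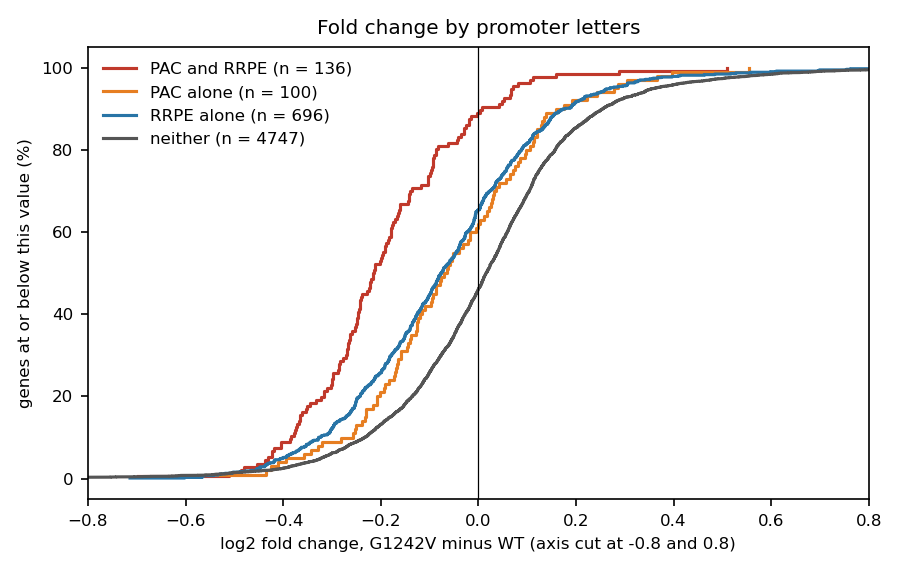
Share of genes (%) at or below each log2 fold change of G1242V against WT, for promoters with both PAC and RRPE, PAC alone, RRPE alone or neither. The curve for both elements lies to the left (median -0.22), those for a single element lie between (-0.07 and -0.08), and genes with neither centre near 0 (0.02).

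In the machinery around the ribosome some genes fell, and no ribosomal protein gene was called. Of 36 genes for RNA polymerases I and III and their factors 3 fell (8.33%, against 2.59% of all features) and 1 rose (2.78%, against 1.98%). RPA43, a stalk subunit of RNA polymerase I, went from 41.3, 38.2 and 42.9 in WT to 31.0, 31.8 and 28.7 in the G1242V libraries, all below WT (log2 fold change -0.41, SE 0.06, adjusted p = 0.0116; -0.37 without library 3). RPA135, its second largest subunit, changed by -0.42 and RPA49 by -0.30, while TFC3, of the RNA polymerase III factor TFIIIC, rose by 0.25. Among 39 tRNA modification genes 9 fell (23.1%, against 2.59% of all features) and none rose, with list medians of -0.14, -0.08 and -0.17 in the 3 libraries; without library 3 none was called. TRM112, a partner of several methyltransferases, was at 97.2, 96.1 and 101 in WT and at 75.6, 77.0 and 69.8 in the G1242V libraries (-0.40, adjusted p = 0.0196; -0.36 without library 3). The methyltransferase genes TRM11 (-0.38) and NCL1 (-0.27) and the dihydrouridine synthase gene DUS3 (-0.33) were likewise low in all 3.

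Of 40 translation factor genes 5 fell (12.5%, against 2.59% of all features) and none rose, with medians of -0.23, -0.12 and -0.24; without library 3 none was called. TIF5, encoding eIF5, which triggers GTP hydrolysis at the start codon, was at 63.6, 63.3 and 71.8 in WT and at 39.0, 45.8 and 35.6 in the G1242V libraries. The groups were far apart with library 2 the nearest to WT (log2 fold change -0.71, SE 0.12, adjusted p = 0.0157; -0.63 without library 3). PRT1 and RPG1, subunits of eIF3, changed by -0.39 and -0.36, GCN20, which helps to activate the Gcn2 kinase, by -0.24, and TEF4, a subunit of the elongation factor eEF1B, by -0.57. All 3 libraries were below WT at 18 of 21 aminoacyl-tRNA synthetase genes (85.7%, against 19.6% of all features), of which FRS2 (-0.45) and GLN4 (-0.25) were called. None of 137 ribosomal protein genes was called; their median was 0.03, with 0.06, 0.11 and -0.08 in the G1242V libraries and 0.03, 0.11 and -0.14 in the WT libraries, so the spread within a group was as wide as that between them.

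RNA of a few genes of nucleotide synthesis and salvage was lower. GUA1, GMP synthase, was at 126, 124 and 115 in WT and at 90.2, 90.0 and 80.7 in the G1242V libraries, all 3 low (log2 fold change -0.48, SE 0.07, adjusted p = 0.0116; -0.43 without library 3). IMD3, an IMP dehydrogenase (-0.39), and PRS5, a phosphoribosyl pyrophosphate synthetase subunit (-0.24), made up the 3 falls among 29 purine genes (10.3%, against 2.59% of all features), and none rose. Of 17 pyrimidine genes, URA7, CTP synthase (-0.48), FUR4, the uracil permease (-0.45), and FUR1, which salvages uracil (-0.35), fell (17.6%) and none rose.

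**Figure D4:**
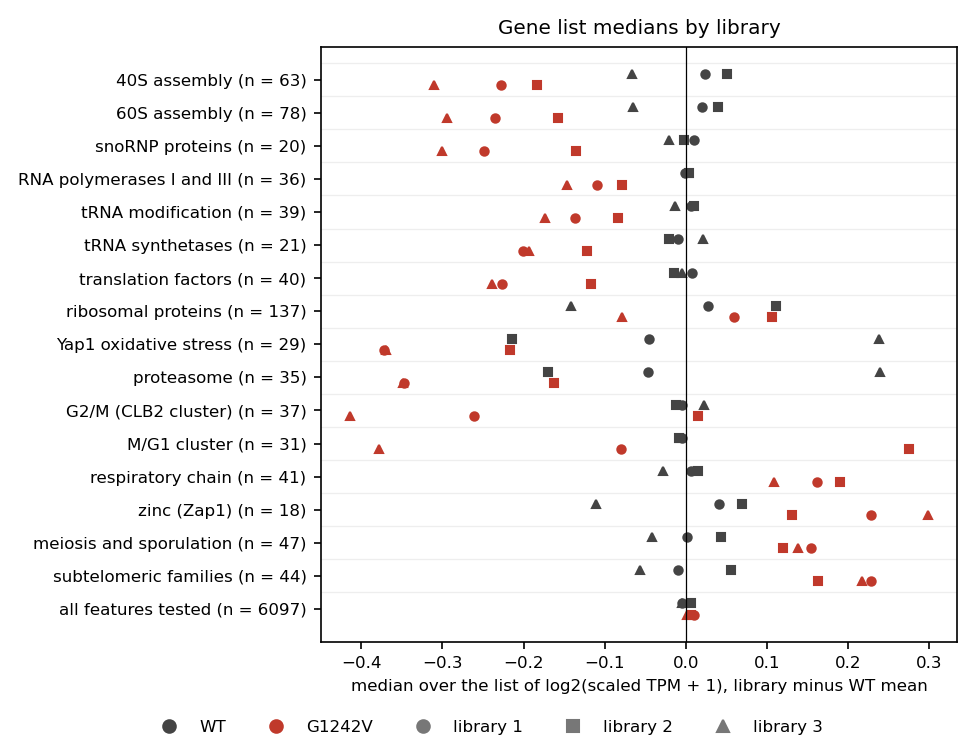
Median over each gene list of the difference from the WT mean on the log2(scaled TPM + 1) scale, for the 3 WT libraries (grey) and the 3 libraries labelled G1242V (red), with shapes for library numbers. Ribosome assembly lists separate the groups, ribosomal proteins do not, and the G2/M and M/G1 lists split the G1242V libraries (M/G1 at -0.08, 0.28 and -0.38).

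Single genes outside these lists fell by more than the median of the ribosome assembly lists. RIM4, an RNA-binding protein of meiosis, was at 81.9, 67.9 and 92.3 in WT and at 53.0, 53.9 and 37.4 in the G1242V libraries (log2 fold change -0.74, SE 0.18, adjusted p = 0.0413). Library 3 was the lowest, and the value without it was -0.57. VHR2, a relative of the biotin regulator Vhr1, went from 111, 117 and 91.1 to 72.5, 68.6 and 55.2, with all 3 libraries low (-0.69, SE 0.12, adjusted p = 0.0157; -0.58 without library 3). CYC3, which attaches heme to cytochrome c, stood at 50.5, 51.4 and 56.7 in WT and at 37.2, 35.9 and 30.7 in the G1242V libraries (-0.60, adjusted p = 0.0261; -0.52 without library 3). ECM33, a cell wall protein, was at 181, 191 and 192 in WT and at 119, 157 and 110 in the G1242V libraries (-0.56, adjusted p = 0.0359; -0.46 without library 3), and library 2 was the nearest to WT. YLR108C (-0.63) and YPL113C (-0.62) also fell in all 3 libraries. In the empty_vector libraries RIM4 averaged 48.8 and ECM33 123, close to the G1242V means of 48.1 and 128.5. VHR2 averaged 90.7 and CYC3 42.0 there, above the G1242V libraries.

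The named rises held kinases, transcription factors and small or little-studied features. VHS1, a protein kinase gene found as a suppressor of a cell cycle block, had the smallest adjusted p of the table. It stood at 76.2, 84.8 and 72.3 in WT and at 121, 123 and 138 in the G1242V libraries (log2 fold change 0.71, SE 0.07, adjusted p = 0.00518). The 3 G1242V libraries were close to each other despite their unequal SCC2, and the rise held without library 3 (0.65, adjusted p = 0.0331). TOS8, a homeodomain transcription factor, was at 132, 129 and 137 in WT and at 214, 215 and 247 in the G1242V libraries (0.76, SE 0.09, adjusted p = 0.00807; 0.69 without library 3, adjusted p = 0.0496). ADI1, an enzyme of methionine salvage, was at 149, 155 and 167 in WT and at 226, 233 and 265 in the G1242V libraries (0.61, SE 0.08, adjusted p = 0.00807; 0.54 without library 3, adjusted p = 0.0496). In all 3 genes every G1242V library was far above every WT library. YOL159C-A, a small reading frame named here because it is the fourth of these calls and chosen after its values were seen, was at 37.0, 34.2 and 39.1 in WT and at 54.6, 65.0 and 48.1 in the G1242V libraries.

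COM2, a zinc finger transcription factor, stood at 112, 117 and 129 in WT and at 183, 246 and 253 in the G1242V libraries (log2 fold change 0.91, SE 0.12, adjusted p = 0.0109). All 3 were high, library 1 least so, and without library 3 the value was 0.83 (adjusted p = 0.0572). SKS1, a kinase of the response to low glucose, went from 175, 196 and 155 to 278, 327 and 384 (0.90, SE 0.13, adjusted p = 0.0116; 0.78 without library 3). CIP1 (YPL014W), an inhibitor of cyclin-dependent kinase, went from 47.3, 55.1 and 58.4 to 98.6, 135 and 133, a rise of over 2-fold on average (1.17, SE 0.19, adjusted p = 0.0157; 1.10 without library 3). TOS3, a kinase that activates Snf1, was at 47.7, 43.9 and 55.7 in WT and at 70.5, 100 and 88.2 in the G1242V libraries (0.79, adjusted p = 0.0176; 0.77 without library 3). SET6, a SET domain protein, rose by 0.86 (0.81 without library 3) and CUR1, which sorts misfolded proteins to the nucleus, by 0.69 (0.62 without library 3). Library 2, with the most SCC2 RNA of the 3, was the highest at CIP1 and TOS3, and library 3 at COM2, SKS1 and CUR1.

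Of the small features, YMR320W near the end of chromosome XIII rose from 7.78, 9.09 and 8.94 to 19.2, 19.4 and 30.6 (log2 fold change 1.30, SE 0.20, adjusted p = 0.0116). Library 3 was the highest and the value without it was 1.08. YBR182C-A (1.30), YER188W (1.05), YPR145C-A (1.02) and YBR196C-A (0.81) were called as well, at levels under 45 in every one of the 6 libraries. snR50, a box C/D RNA that guides methylation of 25S rRNA, was at 48.9, 52.0 and 42.6 in WT and at 97.5, 70.0 and 82.5 in the G1242V libraries (0.78, adjusted p = 0.0300, and 0.78 without library 3). The groups were apart there, and library 2 was the lowest of the 3. YLR466C-B, unmatched and named because it stands alone at the top of the fold changes, was listed at 0.730, 0 and 0 in WT and at 15.1, 4.45 and 19.5 in the G1242V libraries (adjusted p = 0.0157). Of the 121 features called higher, 12 had no match in the reference annotation and 2 were identical to each other; how reads on the opposite strand were treated is not given in the sources used here.

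A few meiotic and subtelomeric genes were higher. Of 47 tested meiosis genes 3 rose (6.38%, against 1.98% of all features) and 1 fell, which was RIM4; the list's median was 0.16, with 0.15, 0.12 and 0.14 in the 3 libraries. ZIP1, the central element of the synaptonemal complex, was at 24.2, 25.8 and 22.1 in WT and at 36.1, 32.1 and 39.6 in the G1242V libraries (log2 fold change 0.56, SE 0.10, adjusted p = 0.0157; 0.49 without library 3). MSH4, of meiotic crossover formation, rose by 0.77 from a level of 3.12 to 4.01 in WT, and the third was REC8, described with cohesin below. Outside the list, NDJ1, which ties telomeres to the nuclear envelope in meiosis, rose by 0.79. The letters of the meiotic repressor site URS1 (GGCGGC) were in 34.0% of the 47 meiosis promoters and in 5.05% of all. Of 44 subtelomeric family members 4 rose (9.09%, against 1.98% of all features) and none fell, namely COS10 (0.66), COS5 (0.37) and PAU1 and PAU14 (0.61), the last pair with identical values. Within 25 kb of a chromosome end 11 of 255 features rose (4.31%, against 1.98% of all features) and 2 fell (0.784%, against 2.59%), with medians of 0.06, 0.05 and 0.05 in the 3 libraries. Within 25 kb of a centromere 11 of 396 rose (2.78%) and 8 fell (2.02%).

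Of the 14 genes for cohesin, its loader and its regulators 1 was called (7.14% higher, against 1.98% of all features), REC8, the meiotic counterpart of Mcd1. It stood at 9.92, 9.91 and 9.45 in WT and at 13.8, 13.2 and 15.0 in the G1242V libraries, all 3 above WT (log2 fold change 0.48, SE 0.07, adjusted p = 0.0109; 0.43 without library 3). SCC4, the partner of Scc2, was at 26.2, 25.0 and 31.0 in WT and at 23.5, 21.1 and 23.8 in the G1242V libraries. All 3 were below WT, without passing the test (-0.25, SE 0.10, adjusted p = 0.141). The acetyltransferase gene ECO1 (-0.39), SGO1 (-0.27) and SMC3 (-0.09) lay below WT in all 3 libraries and RAD61 (0.22), ESP1 (0.16) and PDS5 (0.13) above it, all uncalled. MCD1, which turns over in each cell cycle, was at 6.59, 9.26 and 6.18 in the G1242V libraries and at 7.86 to 9.09 in WT, so library 2 exceeded all WT libraries and the others were under them. SMC1 (-0.05), IRR1 (0.05), HOS1 (0.10) and PDS1 (0.08) overlapped between groups. Among 45 kinetochore genes CBF2, a centromere-binding subunit of CBF3, rose from 23.1, 24.5 and 22.4 to 30.0, 33.4 and 35.4 (0.48, SE 0.07, adjusted p = 0.0116; 0.42 without library 3) and no other was called. CBF2 alone is 2.22% of the kinetochore genes, near the 1.98% of all features called higher. In replication, MCM2 (-0.31) and MCM3 (-0.24), subunits of the helicase, fell among 24 tested pre-replicative genes (8.33%, against 2.59% of all features). Among 11 histone genes HTB2, for histone H2B, rose (0.52) and HHO1, the linker histone, fell (-0.40), each being 9.09% of that list.

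Some cell cycle genes were among those where the 3 libraries disagreed. The 8 genes of widest range among the G1242V libraries, taken from those with a mean of 10 TPM or more and a WT range under 0.5 on the log2 scale, were SCC2, HIS3 and 6 genes expressed, mostly in daughter cells, as they leave mitosis. These were chosen for that spread, so their values are a description. CTS1, the chitinase that splits the septum, was at 169, 284 and 97.8 in G1242V libraries 1, 2 and 3, and at 204, 207 and 218 in WT. EGT2, of cell separation, was at 54.2, 91.2 and 32.5 against 71.9, 70.0 and 76.3. DSE1, a daughter-cell protein, was at 49.8, 93.0 and 28.1 against 57.4, 51.7 and 64.3. In each of these genes, and in DSE2, DSE4 and SCW11, library 2 was above all WT libraries and library 3 below them, in the order of the SCC2 level. For comparison CTS1 averaged 295 with the R787G plasmid and 93.1 without insert.

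The M/G1 list of 31 genes had no called member, with medians of -0.08, 0.28 and -0.38 in the 3 libraries. No member lay below WT in all 3 libraries (against 19.6% of all features), and 4 lay above it in all 3 (12.9%, against 20.8%). The 37 genes of the G2/M list had medians of -0.26, 0.02 and -0.41. Their medians were -0.516, -0.505 and -0.449 in the empty_vector libraries and 0.024, 0.022 and 0.085 in the R787G libraries. Of them IRC8 rose, from 13.6, 14.8 and 15.4 to 19.0, 24.5 and 22.9 (log2 fold change 0.56, adjusted p = 0.0157; 0.53 without library 3), and CLB4, a B-type cyclin (-0.34), and SUR7, of the eisosome (-0.45), fell. At these 3 genes the libraries agreed. With all libraries, 2 of the 37 were called lower (5.41%, against 2.59% of all features) and 1 higher (2.7%, against 1.98%). When library 2 was left out, 15 of the 37 were called lower, beside 207 of all 6097 features. None of 50 G1/S genes was called, and that list did not split the libraries in this way (medians of -0.10, -0.003 and -0.05). Sorting by a cell cycle phase was not part of the design, so a shift in the share of cells in a phase and a change within cells cannot be told apart.

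In several other groups few genes or none passed the test. Among 41 genes of the respiratory chain and ATP synthase, all 3 libraries were above WT at 24 (58.5%, against 20.8% of all features) and below at 5, with medians of 0.16, 0.19 and 0.11, and none was called. The 22 features of the mitochondrial genome had medians of 0.19, 0.33 and 0.03. Proteasome genes, 35 in all, had medians of -0.35, -0.16 and -0.35, but the WT libraries themselves spread from -0.17 to 0.24. The 29 genes of the Yap1 oxidative response had medians of -0.37, -0.22 and -0.37, with the WT libraries from -0.21 to 0.24, and no gene of either list was called. Zinc genes under Zap1 were above WT in all 3 libraries at 8 of 18 (44.4%, against 20.8% of all features), with a median of 0.20 and none called. Their medians were 0.23, 0.13 and 0.30 in the G1242V libraries and 0.04, 0.07 and -0.11 in the WT libraries. The empty_vector libraries had 0.32, 0.31 and 0.27. Of 50 genes of the general stress response CTT1, catalase (0.40), and PHM7 (0.41) rose (4.0%, against 1.98% of all features).

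The libraries labelled G1242V were next compared with the other mutant groups; these comparisons share the G1242V libraries with the one against WT. Against empty_vector, 9 features were called (0.148%), 5 higher and 4 lower, and 1127 had an unadjusted p under 0.05. Against R787G, limma called 0 features (0%), with 1228 at an unadjusted p under 0.05 and a smallest adjusted p of 0.117. In a comparison chosen after seeing the data, without library 3, the count against empty_vector was 25 (0.41%), with 889 at an unadjusted p under 0.05. With all libraries, 7 of the 279 features called against WT were also called against empty_vector. Some genes named above stood near the empty_vector level, and examples were picked after their values were seen. G1242V minus empty_vector was 0.05 for ZIP1, 0.07 for snR50 and 0.01 for CTT1. No ribosome assembly gene was among the 9 features called against empty_vector, and with so few calls a missed threshold does not show that the groups were alike. All 3 G1242V libraries were below the 9 others at 11 of the 159 ribosome assembly genes, against 183 of all 6097 features. The list medians relative to WT were -0.22, -0.15 and -0.08 in the empty_vector libraries and -0.11, -0.15 and -0.18 in the R787G libraries, overlapping those of G1242V.

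The 5 features higher than in empty_vector were CIP1, COM2, SET6, TOS3 and CUR1, all called against WT too. They were selected with library 3 among the G1242V libraries, so the place of library 3 at them is a description. CIP1 was at 50.5, 41.6 and 61.1 in empty_vector and at 72.2, 84.9 and 121 in R787G. All 3 G1242V libraries, library 3 included, exceeded the empty_vector libraries, whereas the highest R787G library exceeded G1242V library 1 (G1242V minus empty_vector 1.25 on the log2 scale, SE 0.19, adjusted p = 0.0406). COM2 was at 132, 118 and 123 in empty_vector and at 145, 178 and 174 in R787G, so that the G1242V libraries were above all 9 others (0.86, SE 0.12, adjusted p = 0.0332). SET6 was at 6.96, 7.02 and 7.18 in WT, 11.9, 14.5 and 14.5 in the G1242V libraries, 8.62, 10.9 and 8.05 in R787G and 6.36, 7.90 and 6.78 in empty_vector. Its G1242V libraries were again above the other 9 (0.87, SE 0.12, adjusted p = 0.0332). TOS3 (1.00, adjusted p = 0.0332) stood at 40.8 to 44.7 in empty_vector and CUR1 (0.71, adjusted p = 0.0376) at 78.4 to 96.4, under each G1242V library. Without library 3, SET6 (0.83, adjusted p = 0.0361), TOS3 (0.98, adjusted p = 0.0413) and COM2 (0.77, adjusted p = 0.0446) still passed against empty_vector, and CUR1 (0.64, adjusted p = 0.0502) and CIP1 (1.18, adjusted p = 0.0599) did not.

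**Figure D5:**
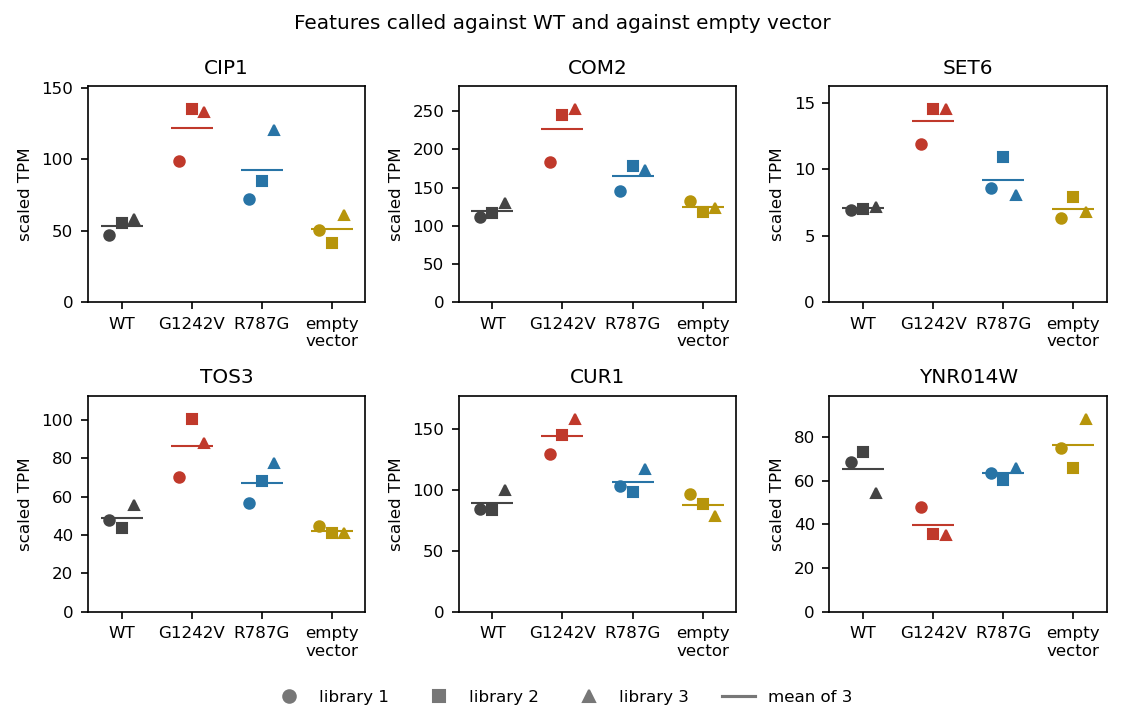
Scaled TPM in all 12 libraries for 6 features called both against WT and against empty_vector, with a line at the mean of 3. Library 3 labelled G1242V (red triangle) stands with G1242V libraries 1 and 2 and apart from the empty_vector libraries, for example 133 against 41.6 to 61.1 at CIP1. The features were selected by tests with library 3 among the G1242V libraries, so its place at them is a description.

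Of the 4 features lower than in empty_vector, YNR014W, an uncharacterised gene, and TES1, a peroxisomal thioesterase, were also called against WT. YNR014W was at 68.4, 73.0 and 54.1 in WT and at 48.0, 35.6 and 35.0 in the G1242V libraries (log2 fold change against WT -0.71, adjusted p = 0.0269). In R787G it was at 60.5 to 65.9 and in empty_vector at 65.7 to 88.2, so all 3 G1242V libraries were below the 9 others (G1242V minus empty_vector -0.94, adjusted p = 0.0406). TES1 was at 29.1, 28.9 and 29.3 in the G1242V libraries, at 33.8 ± 1.77 in WT (SD, n = 3) and at 36.3 to 38.1 in empty_vector (-0.35 against empty_vector, adjusted p = 0.0332). MDY2, of tail-anchored protein insertion (-0.36), and YMR194C-A (-0.83) were called against empty_vector and did not pass against WT. Without library 3, TES1 (-0.36, adjusted p = 0.0361) and MDY2 (-0.41, adjusted p = 0.0329) passed against empty_vector, and YNR014W (-0.86, adjusted p = 0.0563) and YMR194C-A (-0.85, adjusted p = 0.0523) did not.

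Over the whole table the 3 G1242V libraries lay outside all 9 other libraries at 410 features (6.72%). Of the 121 features called higher against WT, 51 were above all 9, and of the 158 called lower, 52 were below all 9; these were selected on the same libraries, so the shares are a description. Library 3, with the SCC2 level of empty_vector, was beyond every empty_vector library on the side of the change at 103 of the 121 rises and 146 of the 158 falls. The same held at 2486 of all 6097 features, and the calls were selected with library 3 among the libraries, so these counts are a description too.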

How the data were processed

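Per the labels' protocols, stranded libraries of rRNA-depleted RNA gave single reads of 50 bp. The deposited TPM values were computed by the authors with RSEM; the submitters' processing notes also name bcl2fastq 2.17, STAR, edgeR and sacCer3, without steps. TPM keeps no counts, so depth is unknown and no counting interval is given. Of 7036 features, 3 with shifted values were left out, as was 1 unnamed column. RefSeq R64, the assembly behind sacCer3, matched 5953 features by locus tag and 172 by symbol; 908 had no match. TPM was divided by a median-of-ratios factor per library (5421 features, factors 0.904 to 1.19). Tests ran on log2(scaled TPM + 1) in limma 3.58.1 (R 4.3.3; variance trend, moderated two-sided test, Benjamini-Hochberg adjustment) in 1 fit of all 12 libraries by group, with 8 residual and 3.2 prior degrees of freedom. A fold change on this scale understates low genes. Called means an adjusted p under 0.05. Replicates are separate cultures per the labels.

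Named genes were 12 rises and 12 falls, the largest of called, annotated, non-overlapping features with a mean of 5 TPM or more, up to 4 called members of smallest p per list, the 8 widest ranges among G1242V libraries, SCC2, HIS3 and cohesin genes, and the 8 smallest p. The members, rule and 53 gene lists were chosen with earlier results of these data known. Others are named for a count they belong to, after their values were seen. With 3 libraries a side, exact permutation stops at p = 0.1 and was not used. The script was tested on simulated data.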

Additional observations from a re-analysis of the deposited data

Results flagged for a closer look

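In 9 features the libraries labelled G1242V differed from the empty_vector libraries, so that the effects of both relative to WT differed by a direct test (limma, log2 scale, 3 against 3 libraries, with library 3 labelled G1242V included). Higher with the G1242V label were YPL014W (CIP1) by 1.25 (adjusted p = 0.0406), CUR1 by 0.71 (adjusted p = 0.0376), and TOS3 by 1.00, SET6 by 0.87 and COM2 by 0.86 (adjusted p = 0.0332 each). Lower were YNR014W (-0.94, adjusted p = 0.0406), YMR194C-A (-0.83, adjusted p = 0.0425), MDY2 (-0.36, adjusted p = 0.0435) and TES1 (-0.35, adjusted p = 0.0332). All 3 G1242V libraries lay on the same side of all 3 empty_vector libraries at each of the 9. The 9 were selected by a test of these same libraries, so this is a description and adds no further evidence. Without library 3, in a comparison chosen after seeing the data, COM2, TOS3, SET6, MDY2 and TES1 still passed the test, and YPL014W (adjusted p = 0.0599), CUR1 (adjusted p = 0.0502), YNR014W (adjusted p = 0.0563) and YMR194C-A (adjusted p = 0.0523) did not.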

How the results depend on the processing

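Of the 279 calls (121 higher, 158 lower), the deposited TPM without scaling left 57 (39 and 18), a fit of the WT and G1242V libraries alone gave 823 (433 and 390), and G1242V library 2 alone, assumed to vary like the other libraries, gave 7 (4 and 3). Against empty_vector, 9 features were called with all libraries and 25 without G1242V library 3, a setting chosen after seeing the data. Against WT, leaving out 1 library at a time gave 3 to 318 calls, 1 to 111 of them higher and 0 to 207 lower. The cause was not tested, apart from the fewer libraries in the last settings. Replicate numbers did not pair the libraries (correlations of same-numbered WT and G1242V deviations 0.242, -0.225 and 0), and the replicate block gave 207 calls (94 and 113). Quantile scaling, other pseudocounts, other filters and no variance trend stayed within 1.5 times of each count. Of 1892 values of named genes under alternatives, 1277 kept their state (called or not called), 610 lost a call and 5 gained one. As reported, 99 of the 119 named genes were called, so the 1277 include uncalled genes that stayed uncalled. Library weights from limma did not converge and were not used. Depth is unknown, and small differences of low features cannot be judged against counting error.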
